A study of Mus musculus with 6 samples.

Results

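The 6 genes of calcium removal and sodium pumping followed here in H3K27ac maps of mouse heart muscle nuclei were Atp2a2, Pln, Slc8a1, Camk2d, Atp1b1 and Fxyd1. They are a list by function, with no threshold on a measured value, and make up 6 of the 21887 protein-coding genes in the RefSeq table used (GRCm38.p6). At each gene the peaks of the 6 deposited lists were taken that overlap, by at least 1 bp, the annotated gene body plus 10 kb on each side, here called the window. H3K27ac, an acetyl group on lysine 27 of histone H3, marks active promoters and enhancers, and CUT&RUN cuts out the DNA beside an antibody-bound mark with a tethered nuclease. Left ventricles of FVB mice, 8 to 12 weeks old, supplied the nuclei, which were sorted with an antibody to PCM-1, a protein that marks cardiomyocyte nuclei. There are 3 libraries labelled WT and 3 labelled HOM, of a line in which Nppa and Nppb, the genes of the natriuretic peptides ANP and BNP, are both knocked out. The labels do not spell out HOM, and do not say how the deletion was made or whether the mice descend from 1 founder. They also list Myh6-MerCreMer, nTnG and Sun1/sfGFP lines kept on FVB/N, without saying that any of these 6 libraries came from such a mouse. Whether each library is a different animal is not stated, and the p-values reflect only the scatter of these libraries, part of which may be technical. The comparison asked whether the acetylation of these genes differed between WT and HOM ventricles.

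In each heartbeat the calcium that triggers contraction has to leave the cytosol again. Atp2a2 encodes SERCA2, the pump that returns calcium to the sarcoplasmic reticulum, and Pln encodes phospholamban, the small membrane protein that restrains SERCA2 until it is phosphorylated. Camk2d encodes the main cardiac isoform of calcium/calmodulin-dependent kinase II, which phosphorylates phospholamban. Slc8a1 encodes NCX1, the exchanger that carries calcium out of the cell in return for sodium. The sodium gradient that drives NCX1 is kept up by the sodium-potassium pump, of which Atp1b1 encodes the beta1 subunit. Fxyd1 encodes phospholemman, the FXYD protein that restrains that pump much as phospholamban restrains SERCA2.

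The promoters of 5 of the 6 genes were found in the RefSeq promoter table (GRCm38.p6), as 300 bases from 250 before to 50 after the first base of the transcript. The 4 printed here are those with a peak in the most libraries, in 5 at Fxyd1, in 4 at Slc8a1 and at Camk2d and in 2 at Pln. The Atp1b1 promoter, with a peak in 1 library, is not printed. They are written 5′ to 3′ on the strand of the gene, and capitals mark matches on either strand to 5 short motifs. These are the GC box GGGCGG of Sp-family factors, the core promoter element TATAAA, the GATA-factor site AGATAA, the TEAD-factor site CATTCC and the oestrogen-related receptor site AAGGTCA. No capital belongs to more than 1 motif.
Fxyd1 promoter, minus strand, chr7:31054804-31055103: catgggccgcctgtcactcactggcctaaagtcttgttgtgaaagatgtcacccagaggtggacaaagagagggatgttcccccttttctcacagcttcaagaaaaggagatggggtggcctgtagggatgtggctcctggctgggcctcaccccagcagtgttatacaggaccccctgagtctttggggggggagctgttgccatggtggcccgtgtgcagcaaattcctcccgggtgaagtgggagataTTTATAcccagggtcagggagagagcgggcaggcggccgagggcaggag
Slc8a1 promoter, minus strand, chr17:81738338-81738637: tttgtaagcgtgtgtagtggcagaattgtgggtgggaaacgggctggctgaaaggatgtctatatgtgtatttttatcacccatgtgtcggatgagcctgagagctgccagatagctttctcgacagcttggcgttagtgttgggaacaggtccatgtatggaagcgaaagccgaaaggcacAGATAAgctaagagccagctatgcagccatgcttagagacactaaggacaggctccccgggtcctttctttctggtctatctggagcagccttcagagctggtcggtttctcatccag
Camk2d promoter, plus strand, chr3:126596701-126597000: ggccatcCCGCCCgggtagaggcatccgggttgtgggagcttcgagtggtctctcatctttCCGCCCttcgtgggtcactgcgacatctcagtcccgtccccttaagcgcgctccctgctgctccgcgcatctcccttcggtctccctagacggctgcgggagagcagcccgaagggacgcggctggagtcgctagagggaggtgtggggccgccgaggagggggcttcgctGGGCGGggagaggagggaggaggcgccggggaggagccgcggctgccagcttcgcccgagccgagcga
Pln promoter, plus strand, chr10:53337436-53337735: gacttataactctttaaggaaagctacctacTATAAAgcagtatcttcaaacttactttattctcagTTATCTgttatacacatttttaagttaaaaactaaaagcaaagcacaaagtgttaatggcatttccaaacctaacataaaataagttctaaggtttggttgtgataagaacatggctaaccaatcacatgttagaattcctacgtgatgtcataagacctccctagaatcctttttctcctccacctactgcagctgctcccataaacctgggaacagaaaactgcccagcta

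The Fxyd1 promoter held a peak in 5 libraries, which covered 111, 300 and 300 of its 300 bases in WT replicates 1, 2 and 3 and 197 and 173 bases in HOM replicates 1 and 3. Its GC content was 58.7%, and its only match was TATAAA, on the minus strand of the printed sequence, 1 bp after the start. The Slc8a1 promoter, at 50.7% GC with 1 AGATAA at -68, was covered over 156, 200 and 300 bases in WT and over 39 bases in HOM replicate 1, with no peak in HOM replicate 3. The Camk2d promoter is a CpG-rich one, with 70.3% GC, 31 CpG and 3 GGGCGG boxes, and was covered over 23, 137 and 194 bases in WT and over 103 bases in HOM replicate 3. The Pln promoter is AT-rich, with 36% GC and 1 CpG, and carried TATAAA at -219 and AGATAA at -183. It lay outside every peak in 4 libraries and was covered over 182 bases in WT replicate 3 and 116 bases in HOM replicate 1. The Atp1b1 promoter has 71% GC, 31 CpG and 2 GGGCGG boxes, and only WT replicate 3 had a peak on it, over 108 bases. None of the 5 promoters was covered in HOM replicate 2. For comparison, a peak touched 3.0%, 14.2% and 24.3% of all 32851 promoters in WT replicates 1 to 3 and 8.21%, 0.0791% and 2.26% in HOM replicates 1 to 3. Among all promoters 35.7% hold GGGCGG, 13.6% TATAAA, 11.2% AGATAA, 14.7% CATTCC and 4.72% AAGGTCA, and a match describes letters, not binding.

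The 6 lists differ greatly in length, which bears on each count below. WT replicates 1, 2 and 3 held 21340, 72362 and 106605 peaks and HOM replicates 1, 2 and 3 held 48102, 1462 and 15184, covering 6.69, 31.6, 55.7, 17.2, 0.296 and 4.54 Mb. HOM replicate 2 stood apart: 17.0% of its peaks lay on the Y chromosome, the mitochondrial genome or unplaced sequence, against 0.16% to 1.02% elsewhere. The genotype differences at the 6 genes are therefore given with and without it. Read depth is not given in the sources used here, and the lists hold no values outside peaks. All 9 cardiomyocyte marker genes had a peak in 4 of the libraries and 8 of 9 did in HOM replicate 3 (all but Pcm1), but 0 of 9 in HOM replicate 2. Fibroblast marker genes had a peak for 0 of 8 in 5 libraries and 1 of 8 in WT replicate 3. Peaks occurred at 0 to 5 of 8 endothelial, 0 to 4 of 8 immune and 0 to 7 of 8 smooth muscle and pericyte marker genes, with the highest counts in the longest list, WT replicate 3 (for immune genes level with WT replicate 2). Their part in the results below was not tested. In a sorted bulk sample, fewer nuclei carrying a mark and less mark per nucleus cannot be told apart.

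All 6 genes carried peaks in the same 5 libraries, namely WT replicates 1, 2 and 3 and HOM replicates 1 and 3, and none did in HOM replicate 2. That pattern was shared by 14.5% of the 21887 protein-coding genes, and a peak in 3 WT and any 2 HOM libraries by 14.6%. None of the 6 had a peak in all 6 libraries (all genes, 2.07%) or in 3 WT and 0 HOM libraries (all genes, 1.21%). A peak lay in the windows of 26.2%, 50.8% and 60.4% of all genes in WT and of 40.6%, 2.44% and 20.5% in HOM. The windows of the 6 genes together held 74, 259 and 398 peaks in WT replicates 1 to 3, against 176, 0 and 56 in HOM replicates 1 to 3. These numbers follow the lengths of the lists: in the 5 libraries with peaks the 6 genes took between 0.347% and 0.373% of all peaks. HOM replicates 1 and 3, at 0.366% and 0.369%, lay inside the WT range of 0.347% to 0.373%.

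**Figure D1:**
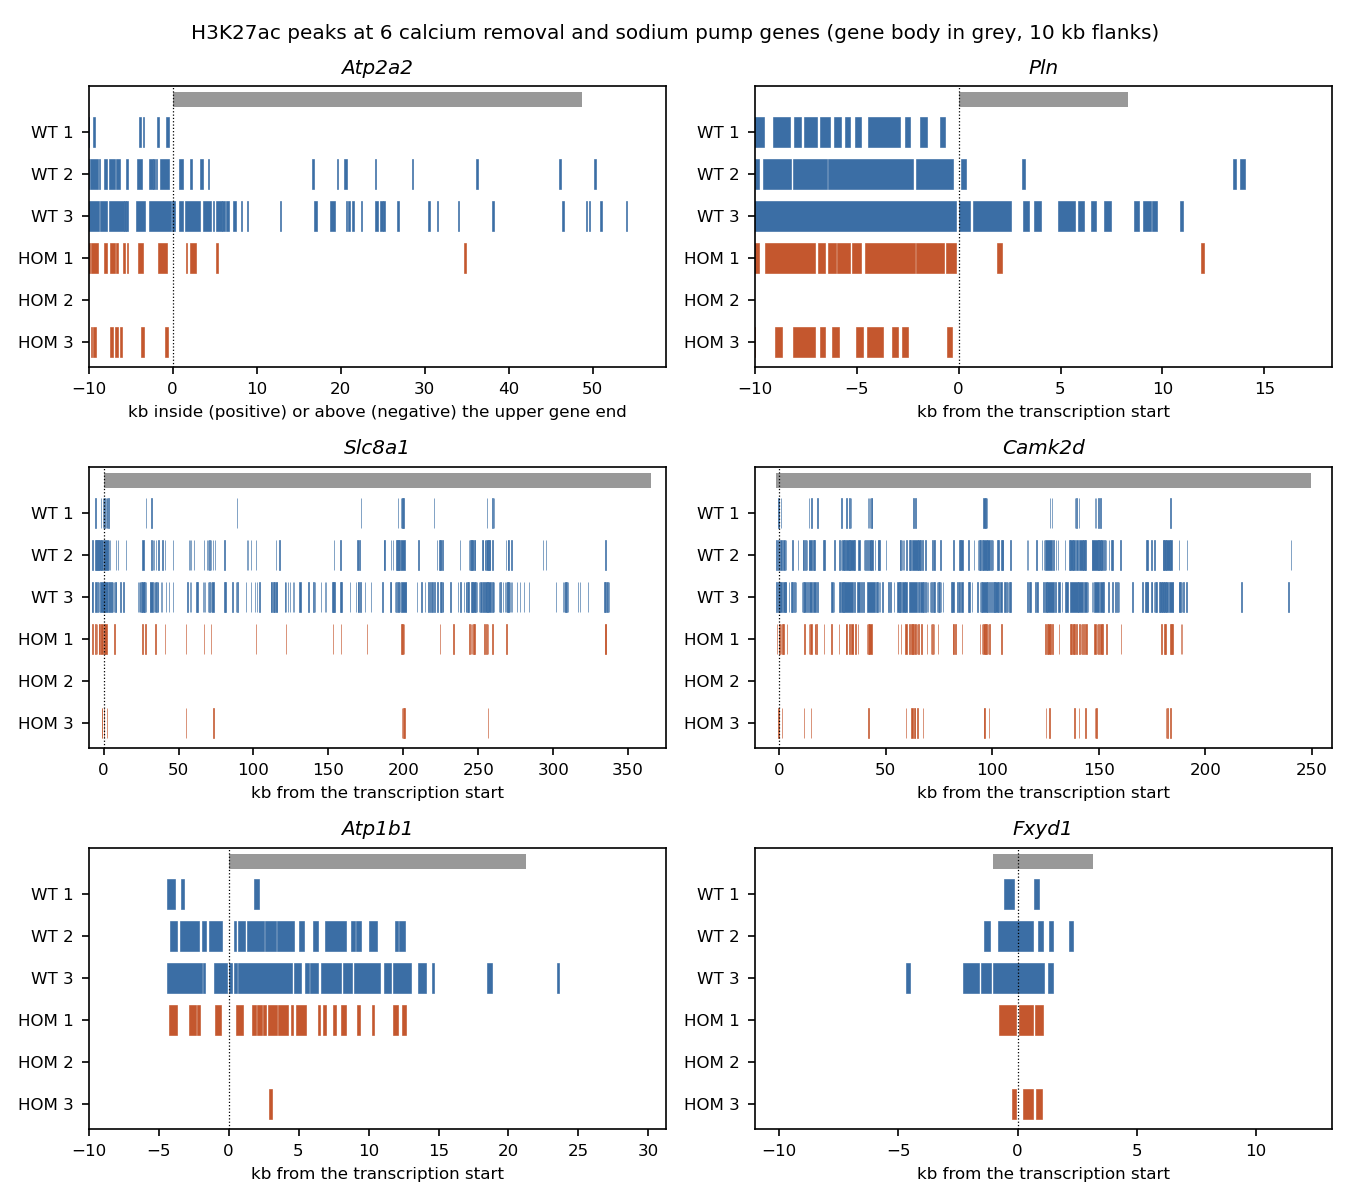
Peaks at the 6 genes in each library, drawn as bars at their position in kb from the transcription start (for Atp2a2, from the annotated end with the higher coordinate), with the gene body marked and 10 kb on each side; blue rows are WT and orange rows HOM. HOM replicate 2 has an empty row at every gene, and the rows of the long lists (WT replicates 2 and 3) are filled most densely.

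Atp2a2 (chr5:122453513-122502225, window 68.7 kb) had its recurrent acetylation next to the gene, beyond the annotated end with the higher coordinate, and not on the gene body. It held 6, 24 and 38 peaks in WT and 13, 0 and 7 in HOM. In the shortest lists, WT replicate 1 and HOM replicate 3, none of these peaks lay on the gene body, while 11, 27 and 4 did in WT replicates 2 and 3 and HOM replicate 1. Peaks of the 5 libraries met in 3 regions, centred 1.55, 3.82 and 9.30 kb beyond that end. The nearest, chr5:122502458-122505085, was covered over 581, 1858 and 2628 bp in WT, against 1046 in HOM replicate 1 and 262 bp in HOM replicate 3. The farthest, chr5:122510032-122513015, was covered over 554, 2237 and 2896 bp in WT, against 1984 in HOM replicate 1 and 476 bp in HOM replicate 3. One more region, chr5:122507806-122509821, was missing in WT replicate 1 only. The strongest peak of Atp2a2 by the authors' fold enrichment ranked 2920, 2085 and 1021 in the WT lists and 2648 and 1471 in those of HOM replicates 1 and 3. In percent from the top of each list these ranks are 13.7%, 2.88% and 0.958% in WT and 5.50% and 9.69% in HOM, so the HOM values lay within the WT range. No peak lay on the neighbouring gene Anapc7, a subunit of the anaphase-promoting complex, inside the window.

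Pln (chr10:53337686-53345999, plus strand, window 28.3 kb) was the most densely acetylated of the 6 genes, and its acetylation lay upstream of the start. It held 12, 9 and 13 peaks in WT and 11, 0 and 10 in HOM, so its number of peaks hardly followed the length of the list. What changed was their width. The widest Pln peak measured 1596, 4153 and 12470 bp in WT replicates 1 to 3, against 2454 bp in HOM replicate 1 and 1054 bp in HOM replicate 3. The 12470 bp peak of WT replicate 3, chr10:53325100-53337569, ended just before the transcript's first base, and the other 4 libraries each had their upstream peaks inside it. Within those bounds peaks covered 6306, 11715 and 12470 bp in WT, against 9605 in HOM replicate 1 and 4266 bp in HOM replicate 3. On the Pln gene body WT replicate 1 and HOM replicate 3 had no peak, and WT replicates 2 and 3 and HOM replicate 1 had 2, 8 and 1. The whole Pln window lies inside the annotated span of Cep85l (chr10:53273441-53379883), which encodes a centrosomal protein, so that a peak cannot be assigned to 1 of these 2 genes by position. The strongest Pln peak ranked 348, 310 and 484 in WT, against 441 in HOM replicate 1 and 544 in HOM replicate 3. These are the top 1.63%, 0.428% and 0.454% of the WT lists and the top 0.917% and 3.58% of the HOM lists. It did not lie at the same place in each list. Its summit was at -7.79, -10.0 and -7.65 kb from the start in WT and at -4.29 and -7.67 kb in HOM replicates 1 and 3. In WT replicate 2 the summit lay just outside the window, which the peak only reached into. At these summits 18, 27 and 33 reads overlapped in WT, against 22 and 15 in HOM. The exact Poisson 95% interval of the last, 8.40 to 24.7 reads, includes the first of them.

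Camk2d (chr3:126595487-126846326, plus strand, window 270.8 kb) carried the most peaks summed over the libraries (in WT replicate 3 Slc8a1 had more), and they were spread along the gene body. It held 30, 116 and 142 peaks in WT and 88, 0 and 25 in HOM, every one of them touching the gene body. Of its 154 merged regions 10 were called in 5 libraries, which is 10 of the 18 such regions at all 6 genes. The first lay 1.15 kb after the start of the transcript used for the promoter (chr3:126596951) and the last 183 kb after it. The widest of them, chr3:126657761-126665106, at 64.5 kb, was covered over 832, 5720 and 6935 bp in WT, against 2717 in HOM replicate 1 and 1516 bp in HOM replicate 3. Another, chr3:126692087-126696078, at 97.1 kb, was covered over 1518, 3639 and 3789 bp in WT, against 2725 in HOM replicate 1 and 596 bp in HOM replicate 3. Within each genotype the longer lists covered more of both regions. The strongest Camk2d peak ranked 1094, 436 and 484 in WT, against 867 in HOM replicate 1 and 1471 in HOM replicate 3 (5.13%, 0.603%, 0.454%, 1.80% and 9.69% from the top). It was not the same peak in each list: it lay 42.3 kb, 150 kb and 42.5 kb after the start in WT replicates 1, 2 and 3 and 62.5 and 15.0 kb after it in HOM replicates 1 and 3. In WT replicate 1 and HOM replicate 3, 4 and 3 Camk2d peaks tied for that rank, and the first along the chromosome is given. One region, chr3:126625763-126627222, 29.5 kb after the start, was covered in the 3 WT libraries over 387, 763 and 1303 bp and in no HOM library.

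Slc8a1 (chr17:81373105-81738387, minus strand, window 385.3 kb) is the longest of the 6 genes, and apart from the start and 1 internal site its peaks were scattered along it. It held 21, 88 and 182 peaks in WT and 41, 0 and 10 in HOM, an 18.2-fold range over the 5 libraries with peaks, where whole lists ranged 7.02-fold (8.67-fold and 4.996-fold without HOM replicate 3, 8.80-fold and 4.77-fold without WT replicate 3). The region over the start, chr17:81734458-81741184, was covered over 2266, 5553 and 6399 bp in WT, against 4083 in HOM replicate 1 and 755 bp in HOM replicate 3. The internal region, chr17:81536689-81540233, 200 kb into the gene, was covered over 903, 2658 and 3545 bp in WT, against 1491 in HOM replicate 1 and 731 bp in HOM replicate 3. HOM replicate 3, the shortest of the 5 lists, had the least coverage in both. Of the 195 Slc8a1 regions, only these 2 were called in 5 libraries, and 111 were called in WT replicate 3 alone. One, chr17:81705403-81707223, 32.1 kb into the gene, was present in the 3 WT libraries (210, 963 and 1781 bp) and in no HOM library. Another, chr17:81683233-81683588, at 55.0 kb, was present in HOM replicates 1 and 3 only (201 and 217 bp). The latter pattern occurred in 1 of the 427 regions at the 6 genes, and its share of all regions is not given here. The strongest Slc8a1 peak ranked 1819, 600 and 3384 in WT, against 604 in HOM replicate 1 and 4440 in HOM replicate 3. As a percent of the list this was 8.52%, 0.829% and 3.17% for WT against 1.26% and 29.2% in HOM, so the 2 HOM libraries lay 1 inside and 1 outside the WT range. In HOM replicate 3 this peak had 11 reads at its summit, a height shared by 2789 peaks of that list and by 5 peaks of Slc8a1.

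Atp1b1 (chr1:164437099-164458355, minus strand, window 41.3 kb) had the widest range of covered length over the 5 libraries, which rests on the single peak of HOM replicate 3. It held 3, 17 and 18 peaks in WT and 20, 0 and 1 in HOM. The 1 region called in 5 libraries, chr1:164453694-164457969, lay 2.52 kb inside the gene, downstream of the GC-rich promoter, and was covered over 323, 3811 and 4051 bp in WT, against 2749 in HOM replicate 1 and 264 bp in HOM replicate 3. The single peak of HOM replicate 3 was 264 bp wide and lay 2985 bp after the start. A second region, chr1:164459978-164462773, 3.02 kb upstream of the start, was covered over 814, 2194 and 2640 bp in WT and 1256 bp in HOM replicate 1, with no peak in HOM replicate 3. The strongest Atp1b1 peak ranked 1819, 822 and 2816 in WT, against 3807 in HOM replicate 1 and 882 in HOM replicate 3 (8.52%, 1.14%, 2.64%, 7.91% and 5.81% from the top). Both HOM values fell inside the WT range. The neighbour Nme7 reached into the window with 1 peak, in WT replicate 3.

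Fxyd1 (chr7:31051678-31055873, minus strand, window 24.2 kb) is the shortest of the 6 genes and had 1 recurrent region, which covers its start. It held 2, 5 and 5 peaks in WT and 3, 0 and 3 in HOM. The region, chr7:31053734-31055888, was covered over 648, 1726 and 2155 bp in WT, against 1628 in HOM replicate 1 and 822 bp in HOM replicate 3. All Fxyd1 peak sequence of WT replicate 1 and HOM replicates 1 and 3 lay in it. Its strongest peak ranked 7515, 7997 and 3384 in WT, against 3807 in HOM replicate 1 and 544 in HOM replicate 3. From the top of the lists this was 35.2%, 11.1% and 3.17% for WT against 7.91% and 3.58% in HOM, and HOM replicate 3 ranked it as high as its strongest Pln peak, with 15 reads at the summit. Of the neighbours in the window, Fxyd5 and Fxyd7, further FXYD proteins, had no peak on their bodies and Lgi4 had 1, in WT replicate 3.

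**Figure D2:**
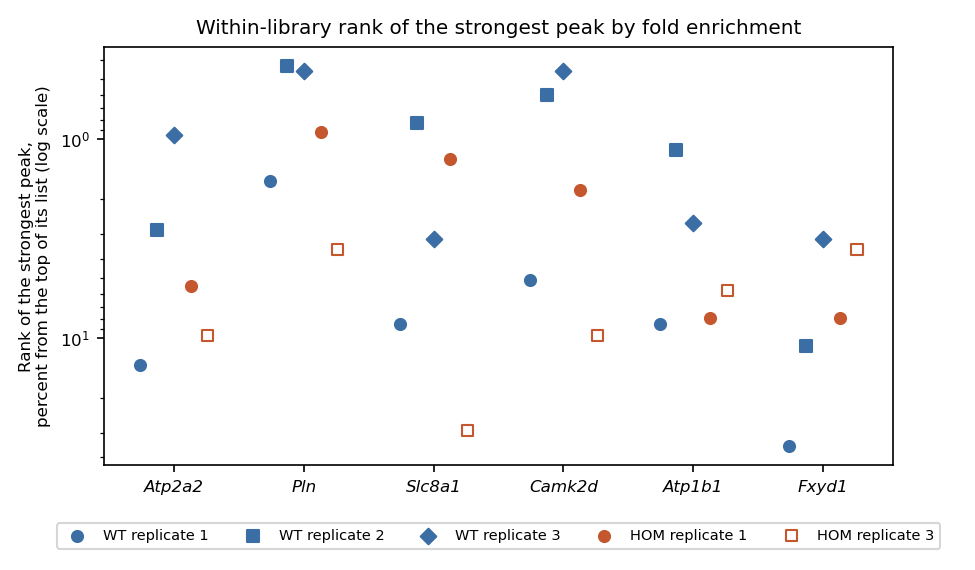
Rank of the strongest peak of each gene within each library's list, in percent from the top by the authors' fold enrichment, on a reversed log axis with stronger peaks higher; each symbol is 1 library and HOM replicate 2, which has no peak at these genes, is not drawn. Pln sits in the top 3.58% of every list, and Fxyd1 spreads from 3.17% to 35.2%.

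Read within each library, the strongest Pln peak ranked first or level with the first of the 6 genes in all 5 lists, shared with Camk2d in WT replicate 3 and with Fxyd1 in HOM replicate 3. In WT replicate 2 that Pln peak had its summit just outside the window. The strongest peak of a gene was not always the same peak in each list. The mean rank over the 5 libraries was 1.40% from the top for Pln, 3.53% for Camk2d, 5.20% for Atp1b1, 6.54% for Atp2a2, 8.60% for Slc8a1 and 12.2% for Fxyd1. Apart from Pln, neighbours in this order changed places between libraries. Lists of different length give such ranks different meanings, so they order genes within a library and show no change between genotypes.

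Per length, the part of the window under peaks gave a similar lead to Pln. Peaks covered 21.3%, 35.5% and 55.4% of the Pln window in WT (37.4% ± 17.1, SD, n = 3), against 32.4% in HOM replicate 1 and 14.0% in HOM replicate 3. Pln was the most covered of the 6 genes in each of the 5 libraries and lay between the 99.7th and 99.9th percentile of all genes. Atp1b1 followed in the WT mean at 22.7% ± 18.4 (SD, n = 3), with 2.76%, 26.5% and 38.9%, and had 17.5% and 0.640% in HOM replicates 1 and 3. Camk2d had 3.20%, 21.4% and 31.8% in WT (18.8% ± 14.5), against 10.9% in HOM replicate 1 and 2.40% in HOM replicate 3. It exceeded Atp1b1 in 2 of 5 libraries, so these neighbours in the order do not separate. Atp2a2 had 1.84%, 12.7% and 26.3% in WT (13.6% ± 12.2), against 7.87% in HOM replicate 1 and 2.86% in HOM replicate 3. At the low end, Slc8a1 had 1.34%, 8.49% and 18.1% in WT (9.30% ± 8.40) with 3.90% and 0.589% in HOM, and Fxyd1 had 2.68%, 9.57% and 14.9% in WT (9.05% ± 6.13) with 6.73% and 3.40% in HOM. Slc8a1 was the least covered of the 6 in 4 of 5 libraries and Fxyd1 in WT replicate 3. Both were still high among all genes. Over the 5 libraries Slc8a1 lay between percentiles 87.1 and 94.0 and Fxyd1 between 91.9 and 97.8. The genes share their libraries, so these standard deviations do not measure the spread of differences between genes. The first place of Pln held in all 5 libraries, and Atp2a2, Camk2d and Atp1b1 each exceeded Slc8a1 in all 5. Other neighbours in this order changed places between libraries.

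The genes differed in how far coverage moved with the length of the list. Whole lists covered 12.3 times more sequence in the largest of the 5 libraries than in the smallest. Covered length ranged 3.96-fold at Pln and 5.56-fold at Fxyd1, 13.2-fold at Camk2d and 14.3-fold at Atp2a2, and 30.7-fold at Slc8a1 and 60.8-fold at Atp1b1. Pln and Fxyd1 ranged less than the lists, and Slc8a1 and Atp1b1 more, also with any 1 of the 5 libraries left out. At Pln a smaller range was set in advance. With 14.0% of its window already covered in HOM replicate 3, the window could not hold a 12.3-fold range. The sizes and the order rest on the libraries at the ends. Without HOM replicate 3 the range was 14.1-fold at Atp1b1, 13.5-fold at Slc8a1 and 9.93-fold at Camk2d, beside 14.3-fold at Atp2a2, 2.60-fold at Pln and 8.32-fold for whole lists, so that Atp1b1 and Slc8a1 no longer stood apart from Atp2a2. Without WT replicate 3 it was 6.91-fold at Atp2a2, 14.4-fold at Slc8a1, 41.3-fold at Atp1b1, 2.53-fold at Pln, 3.57-fold at Fxyd1 and 6.96-fold for whole lists, and without WT replicate 1 it was 9.17-fold at Atp2a2.

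**Figure D3:**
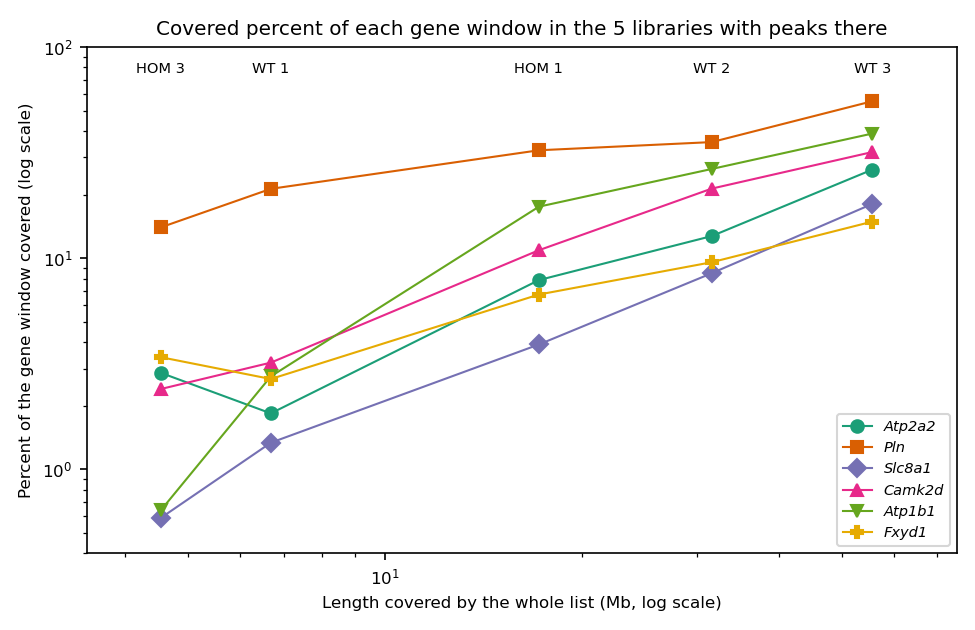
Percent of each gene's window under peaks against the sequence covered by the whole list in Mb, both on log axes, for the 5 libraries with peaks at these genes; each line is 1 gene. Pln is the highest line throughout with the smallest range, and Atp1b1 and Slc8a1 have the widest ranges, with their lowest points in HOM replicate 3.

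The same split appeared among the 427 regions obtained by merging overlapping peaks at the 6 genes. Of these, 275 were called in 1 library, 208 of them in WT replicate 3 alone, and 18 were called in 5 libraries, beside 4.6% of all 114976 merged regions. The 18 lay 3 at Atp2a2, 1 at Pln, 2 at Slc8a1, 10 at Camk2d, 1 at Atp1b1 and 1 at Fxyd1, and in 14 of them at least 1 base was under a peak of all 5 libraries. Their median width was 3818.5 bp, against 203 bp for regions of 1 library. A merged region is at least as wide as its widest peak, so width and number of libraries are linked by construction. The 18 regions held 78.8%, 48.6% and 33.4% of the peak sequence at the 6 genes in WT, against 59.8% in HOM replicate 1 and 85.0% in HOM replicate 3. In the short lists the peaks of these genes were thus mostly the recurrent sites, and the long lists added sites outside them. This is partly built in, since a region of 5 libraries must be called in the short lists too. Both genotypes shared 77 of the 427 regions (all regions, 23.8%), and 2 of 427 were in all 3 WT and no HOM libraries (all regions, 1.03%).

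The comparison of genotypes used each gene's covered length per Mb covered by the whole list, called the covered share. For the 6 genes together it was 3423, 3876 and 3758 bp per Mb for WT against 3955, 0 and 3476 in HOM. HOM replicates 1 and 3 lay on either side of the WT mean, and HOM replicate 2 lay at 0. The means were 3686 ± 235 for WT and 2477 ± 2159 for HOM (SD, n = 3 each), which differ by -1208 bp per Mb, the exact two-sided permutation test giving p = 0.7. Without HOM replicate 2 the HOM mean was 3716 ± 339 (n = 2) and the difference turned to 30.2 bp per Mb (exact permutation p = 0.9). The peak number, as log10 of peaks plus 1, was 2.30 ± 0.377 in WT and 1.33 ± 1.18 in HOM (n = 3 each, difference -0.962, exact permutation p = 0.2). Without HOM replicate 2 that difference was -0.295 (exact permutation p = 0.4). Neither quantity separated the genotypes, and 3 libraries against 3 cannot give a p below 0.1.

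**Figure D4:**
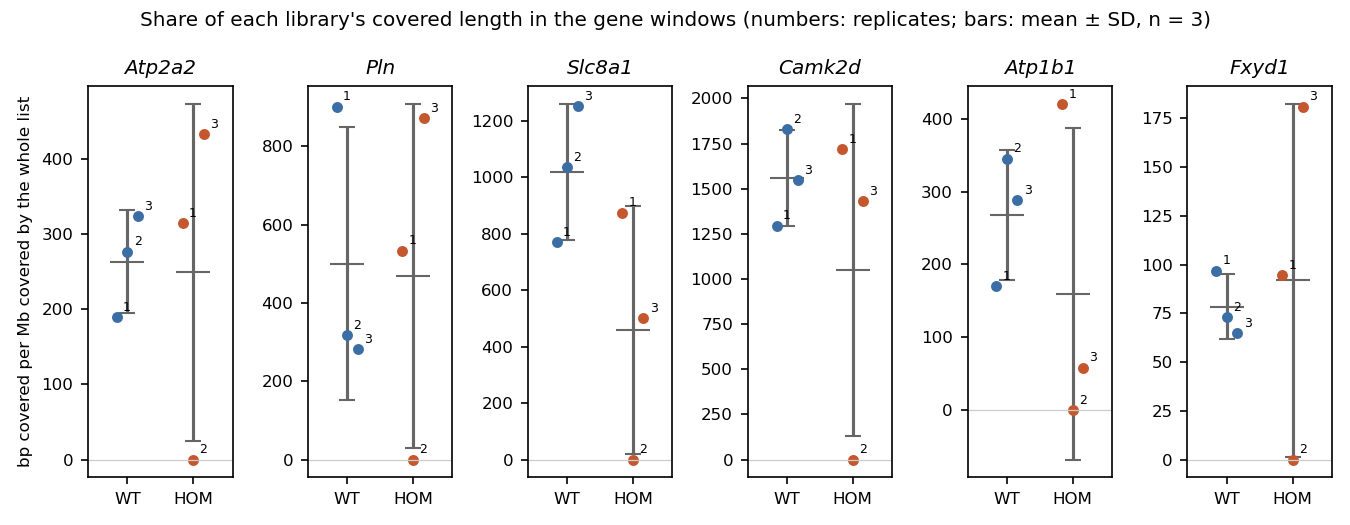
Covered share of each gene in bp per Mb of all peak sequence, by genotype; each point is 1 library and the bars are the mean and SD over 3 libraries. At every gene HOM replicate 2 sits at 0, and the points of the WT and HOM libraries overlap.

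Gene by gene, the covered shares of the WT and HOM libraries overlapped at all 6 members. With the 6 libraries, 0 of 6 members had every HOM library below every WT library, as 8.56% of the 13591 genes with a peak in any library did, and 0 of 6 had every HOM library above (all genes, 0.265%). The count above was fixed in advance, since HOM replicate 2 had no peak at these genes. Without HOM replicate 2 the members counted were again 0 below (all genes, 8.85%) and 0 above (all genes, 4.36%). The median difference, HOM minus WT, was -69.9 bp per Mb over the members and -9.32 over the 13591 genes, and without HOM replicate 2 it was 38.3 and -4.71.

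Slc8a1 had the lowest HOM mean relative to WT. Its share was 770, 1034 and 1251 bp per Mb for WT (1018 ± 241) against 874, 0 and 500 in HOM (458 ± 439, SD, n = 3 each), and the difference of -560 had an exact permutation p of 0.2. HOM replicate 1 lay inside the WT range and HOM replicate 3 below it. Without HOM replicate 2 the difference was -331 (exact permutation p = 0.3). Across the 5 libraries the Slc8a1 share rose in the same order as the length of the list, lowest in HOM replicate 3 and highest in WT replicate 3, so genotype and list length cannot be told apart there.

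Fxyd1 showed the opposite order. Its share was 96.8, 73.2 and 64.8 bp per Mb for WT (78.3 ± 16.6) against 94.7, 0 and 181 in HOM (91.9 ± 90.5, SD, n = 3 each), which differ by 13.6 (exact permutation p = 0.8). HOM replicate 3 was the highest library and HOM replicate 1 lay within the WT range. Without HOM replicate 2 the difference was 59.5 (exact permutation p = 0.2), and without HOM replicate 3 it was -30.9. Fxyd1 was the only member whose genotypes separated when the 5 lists were limited to the 15184 strongest peaks each, the length of the shortest. It then had 83.4, 123 and 106 bp per Mb for WT against 191 in HOM replicate 1 and 181 in HOM replicate 3 (exact permutation p = 0.1, the smallest that 3 against 2 allows). At that length 1 of 6 members had every HOM library above every WT library, as did 6.12% of 8022 genes, and 0 of 6 had every HOM library below, as did 7.64%. The limit left an unequal bar, since the weakest peak kept had a −log10 q of 10.7 in WT replicate 3 and 1.20 in HOM replicate 3. The lists of equal length held 48, 56 and 44 peaks at the 6 genes in WT, against 63 in HOM replicate 1 and 56 in HOM replicate 3.

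With the 6 libraries, the other 4 genes, like Fxyd1, had differences smaller than the SD of the HOM libraries. The Camk2d share was 1296, 1829 and 1548 bp per Mb for WT against 1717, 0 and 1432 in HOM, a difference of -508 (exact permutation p = 0.6) that became 17.0 without HOM replicate 2. The Atp1b1 share was 170, 345 and 288 bp per Mb for WT against 421, 0 and 58.1 in HOM, with the highest and the 2 lowest values all in HOM and a difference of -108 (exact permutation p = 0.5; without HOM replicate 2 -28.5). The Pln share was 901, 318 and 282 bp per Mb for WT against 534, 0 and 872 in HOM, a difference of -31.4 (exact permutation p = 0.9). High Pln shares came from the 2 shortest of the 5 lists, 1 of each genotype, and the difference was 203 without HOM replicate 2 and 169 without WT replicate 1. The Atp2a2 share was 189, 277 and 324 bp per Mb for WT against 315, 0 and 433 in HOM, a difference of -14.0 (exact permutation p = 0.9). It was 111 without HOM replicate 2 (HOM SD 83.9, n = 2), with HOM replicate 3 the highest library. After Benjamini-Hochberg adjustment of the exact permutation p over the 13591 genes, the adjusted p was 0.839 for Slc8a1, 0.983 for Atp1b1 and 1 for the other 4. The smallest adjusted p over all genes was also 0.839, with 1200 genes at the smallest unadjusted p of 0.1 and 0 under 0.05.

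Among the other genes of calcium removal, 6, 19 and 22 of 24 had a peak in WT and 16, 2 and 8 of 24 in HOM. Those with a peak in 5 or 6 libraries were Strit1, which encodes DWORF, a small activator of SERCA, Slc8b1, the mitochondrial sodium-calcium exchanger, and Ppp1cb, a catalytic subunit of protein phosphatase 1, which removes phosphate from phospholamban. Strit1 held 3, 5 and 4 peaks in WT and 4, 0 and 3 in HOM, and Ppp1cb 5, 12 and 16 in WT and 20, 0 and 5 in HOM. Without a peak in any library were Sln, the atrial SERCA regulator sarcolipin, and Ppp1r1a, an inhibitor of protein phosphatase 1. With the 6 libraries, 0 of the 24 had every HOM library below every WT library in covered share (all genes with a peak, 8.56%). Likewise 0 had every HOM library above (all genes with a peak, 0.265%), but a gene without a peak in HOM replicate 2 could not be counted there. Without HOM replicate 2, 0 of the 24 were below (all genes with a peak, 8.85%) and 1 was above (4.36%).

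Of the other sodium pump genes, 9, 10 and 10 of 13 had a peak in WT and 8, 1 and 7 of 13 in HOM. Among those with a peak in 5 libraries were Atp1b3, which encodes the beta3 subunit of the pump, and the FXYD genes Fxyd6 and Fxyd7. Atp1b3 held 1, 4 and 10 peaks in WT and 2, 0 and 1 in HOM, and Fxyd6 1, 4 and 2 in WT and 4, 0 and 1 in HOM. The Fxyd7 window shares peaks with that of Fxyd1. Atp1b2, the gene of the beta2 subunit, Fxyd2 and Fxyd5 had no peak in any library. In covered share, 1 of the 13 had every HOM library below every WT library (all genes with a peak, 8.56%), and 0 above (0.265%). A gene without a peak in HOM replicate 2 could not be counted as above. Without HOM replicate 2, 1 of the 13 was below (all genes with a peak, 8.85%) and 1 above (4.36%).

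For each member the gene most alike in covered length was sought, as the smallest mean difference, over the 6 libraries, in percentile among all protein-coding genes. It was Nfia for Camk2d (0.0419 percentile points), Rbfox2 for Slc8a1 (0.145), Mettl9 for Pln (0.289), Alpk3, level with Xirp2, for Atp2a2 (0.377), Gja1 for Atp1b1 (0.625) and Fgd2 for Fxyd1 (0.704). Alpk3 and Xirp2 encode proteins of the sarcomere and Gja1 the gap junction protein connexin 43. The 6 points of each pair share their libraries, and HOM replicate 2 adds a tie at 0, so the likeness is a description.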

How the data were processed

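H3K27ac CUT&RUN libraries from left ventricle, 3 labelled WT and 3 labelled HOM, were grouped by their titles. Reads were handled with BWA and MACS2 on build mm10, per the submitters' processing notes, without versions or settings. The authors deposited 1 peak list per library, with no sign of pooling, so libraries are the units of every test. Column 7 holds the deposited fold enrichment at the summit, a ratio to a background that was the same for all peaks of a list. Ranks by fold therefore order the peaks of a list by their summit reads. Columns 8 and 9 hold the deposited −log10 p and −log10 q, and column 5 the deposited score, which was not used. Within each list the fold is a whole multiple of 1 step, as (reads + 1)/(background + 1), and a Poisson tail gave the deposited −log10 p to within 4.04e-05, so summit reads were derived from it. Tied folds share a rank. Intervals of reads cover counting error only.

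Windows were RefSeq gene bodies (GRCm38.p6, the assembly behind mm10) plus 10 kb, counted with Python 3.11.15, numpy 2.4.6, pandas 2.3.3 and scipy 1.17.1. WT and HOM were compared with exact two-sided permutation tests over 20 assignments of libraries (10 without 1 library), with Benjamini-Hochberg adjustment over 13591 genes. The procedure was tested on simulated data. The 6 genes are all described; other pathway genes are counted by list and named where they have a peak in 5 or 6 libraries or in none, except some that are not reported here. The members and lists were chosen with earlier results of these data known. Alternatives varied the q threshold, the peaks kept, list length, flank, overlap, chromosomes, scale, libraries and pairing.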

Additional observations from a re-analysis of the deposited data

How the results depend on the processing

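Over 142 recalculations of the tested differences, 123 kept the direction and 19 turned it, and the exact p lay between 0.1 and 1, so no alternative could carry a call. Most of them kept HOM replicate 2, which had no peak at the 6 genes, so their direction was partly set in advance. Some others left the value unchanged, as every flank did at Camk2d (-508). The count of kept directions is therefore no measure of stability. With HOM replicate 2 left out and the 5 lists limited to 15184 peaks, the difference (HOM minus WT) turned to 0.0813 for the log10 peak number and, in bp per Mb of covered share, to 150.1 for the 6 genes, 163 for Atp2a2, 244 for Pln and 17.6 for Slc8a1. With another order of tied folds, an alternative chosen after seeing the data, these were 0.0670, 66.5, 143 and 213, and Slc8a1 was not turned. A flank of 50 kb gave 104 at Atp2a2 and -38.3 at Fxyd1, and a −log10 q of at least 5 gave 101 at Pln, and the cause was not tested. Omitting 1 library gave -1.42 to -0.295 for the peak number, -1947 to 30.2 for the share of the 6 genes, -106 to 111 at Atp2a2, -233 to 203 at Pln, -842 to 17.0 at Camk2d and -30.9 to 59.5 at Fxyd1. Atp2a2 also turned without WT replicate 3 (16.5) and Pln without WT replicate 1 (169). The Atp1b1 difference stayed negative under its 18 alternatives. Replicate numbers are shared by both genotypes. Same-numbered libraries had correlations of deviations of 0.00756, -0.0389 and -0.262, and the other pairs had -0.198 to 0.336. With 3 libraries per genotype, these values cannot decide whether the numbers mark a pairing. With the replicate block the differences are the same by construction, -0.962 for the peak number (exact sign-flip p = 0.5) and -1208 for the share (p = 0.75). The ranges of covered length with 1 library left out, given with those ranges, were also added after seeing the data. Ranking by −log10 q in place of fold gave the same ranks for the strongest peaks. Both follow from the summit reads and 1 background per list, so this was no separate check. Depth limits what an empty window means: HOM replicate 2, with 1462 peaks, cannot show that these genes lack the mark.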

Other observations

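HOM replicate 2, which had no peak at the 6 genes, had a peak at 2 of the 24 other genes of calcium removal. These were single peaks of 111 bp near Slc8b1, the gene of the mitochondrial sodium-calcium exchanger, and 76 bp near Letm1, a gene of mitochondrial calcium and potassium transport. Because that list covers only 0.296 Mb, these narrow peaks gave covered shares of 375 bp per Mb at Slc8b1 and 257 at Letm1. In the other 5 libraries the Slc8b1 share was 30.4 to 80.6 bp per Mb. Without HOM replicate 2, both HOM libraries lay above all WT libraries in covered share at Strit1, the gene of the SERCA activator DWORF, as at 4.36% of genes. Its share was 116, 82.1 and 52.5 bp per Mb for WT against 155 in HOM replicate 1 and 154 in HOM replicate 3. Strit1 was singled out here after its values were seen.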
